A study of Homo sapiens with 12 samples.

Results

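The FOS and JUN families encode the core subunits of the transcription factor AP-1. The members described here are FOS, FOSB, FOSL1 and FOSL2 (FOS family) and JUN, JUNB and JUND (JUN family). They are defined by gene name, as the human genes of these families, and the families were picked for description with earlier results of these data known. All 7 were present in a table of 20263 genes and all 7 were among the 14287 genes with enough counts to be tested. The mRNA of A375, an established melanoma cell line with an activating BRAF mutation, was measured by RNA-seq. The labels give its source as a skin tumor and its genotype as wild type. The 4 groups of 3 libraries were control cells (Ctrl), cells given DdBIC, cells given hemin (Hemin), and cells given DdBIC and hemin (DdBIC+Hemin). DdBIC is written DBIC in the labels. The labels do not give the order in which the compounds were added, or whether control cells received vehicle. DdBIC is a small molecule studied as a ligand of the nuclear receptor Nur77, and hemin is a soluble form of heme that cells can take up. The dose and duration used for these libraries are not given in the sources used here. The study's culture methods lower the serum during DdBIC treatment but do not name the RNA-seq, so the serum of each group is not known. The study's general statement on statistics speaks of independent experiments but does not name the RNA-seq, and the labels do not say that the 3 libraries of a group came from separate cultures, so p-values measure the spread between these libraries, which may be technical.

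AP-1 is a dimer of basic leucine zipper (bZIP) proteins. JUN proteins pair with each other or with a FOS protein, while FOS proteins need a JUN partner, and the dimer binds the DNA sequence TGACTCA. FOS, FOSB, JUN and JUNB are immediate early genes: their transcription starts soon after a growth factor, cytokine or stress signal, without new protein synthesis, and their mRNA is short-lived. FOSL1 (FRA1) and FOSL2 (FRA2) lack the strong activation domain of FOS and usually follow later. JUND is expressed broadly and more steadily. In melanoma cells with active BRAF, ERK signaling is known to maintain FOSL1.

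The promoters of several members carry a short element that CREB and ATF proteins, or JUN with ATF2, are known to bind. Each is shown because it lies just before the RefSeq start of a gene whose mRNA is described below. The sequences are RefSeq sequences of GRCh38.p14, written 5′ to 3′ along the gene, with the element in capitals. TGACGT is shown for the first 4 genes and TGACATCA for JUN.
FOS, chr14:75278753-75278782, plus strand: ggttgagcccgTGACGTttacactcattca
FOSB, chr19:45467925-45467954, plus strand: caaggggcgggTGACGTaagcaggggggcg
FOSL2, chr2:28392781-28392810, plus strand: gagtctggggtTGACGTgagtgaatccaca
JUND, chr19:18281691-18281720, minus strand: gcaaatgagcgACGTCAcccgcacccaatg
JUN, chr1:58784096-58784125, minus strand: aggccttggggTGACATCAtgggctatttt

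In JUND the element shown reads against the gene, so its capitals are the reverse complement. The first capital lay 64 bases before the RefSeq start in FOS, 60 in FOSB, 66 in FOSL2, 87 in JUND and 67 in JUN. RefSeq starts are not always the gene starts of the deposited table: the JUN window lies inside the span, and so the single exon, that the table gives to JUN, and the last bases of the FOS and FOSL2 windows lie inside theirs. Promoter entries of 300 bases (250 before the start and 50 after) were matched for 6 of the 7 members, all but FOSL1, and searched on both strands. TGACGT was found in 4 of the 6, against 7.98% of 35116 promoters. The shorter TGACG, which lies within TGACGT, was found in 6 of 6, against 24.6%. The longer TGACGTCA, which contains TGACGT, was found in 1 of 6 (JUND), against 1.85%. TGACATCA was found in 1 of 6 (JUN), against 2.61%. The AP-1 motif TGACTCA was found in 1 of 6 (FOSL2, just after the start), against 4.95%. TATAAA was found in FOS, FOSB and JUNB, 3 of 6 against 11.5%, and CCAAT in JUN, JUNB and JUND, 3 of 6 against 34.6%. The CArG box bound by SRF was found in 0 of 6, against 1.29%. Sites more than 250 bases before the start lay outside the search, so this count does not show that a promoter lacks an SRF site. These matches describe letters in the window and no binding was measured.

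The total count was 37951275 to 44358912 per library. A gene's level across libraries is stated in CPM, its count divided by a library size corrected with edgeR's TMM factors and put on one common scale. At this depth 3 counts, the limit that a count of 0 allows for counting error, correspond to 0.0684 to 0.0784 CPM. HMOX1, the heme-degrading enzyme that heme induces, was at 61.9 to 65.5 CPM in Hemin and 146 to 188 CPM in DdBIC+Hemin, against 7.26 to 9.19 CPM in the other 6 libraries. Of the melanocyte lineage markers, SOX10 was at 548 to 769 CPM in all 12 libraries, while MLANA and TYR, which define pigmented melanocytes, were at most 0.435 and 0.0512 CPM. Of the leukocyte markers, PTPRC was 0 in every library, CD3E was at most 0.0523 CPM, and CD68 was at 20.2 to 29.7 CPM in all 12.

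FOS, the founding member of its family, was low in control cells and high under DdBIC alone. Its level was 4.09, 2.29 and 5.12 CPM in the 3 Ctrl libraries and 214, 123 and 193 CPM in the 3 DdBIC libraries. It was 3.49, 2.87 and 4.08 CPM in Hemin and 6.87, 9.89 and 10.2 CPM in DdBIC+Hemin. The DdBIC libraries thus stood far above all others, the DdBIC+Hemin libraries lay just above Ctrl and Hemin, and Ctrl and Hemin overlapped. FOSB, a close relative with a strong activation domain, had the same order of groups. It was 10.6, 8.39 and 10.2 CPM in Ctrl, 193, 144 and 166 CPM in DdBIC, 9.08, 8.01 and 9.78 CPM in Hemin, and 16.2, 16.4 and 19.1 CPM in DdBIC+Hemin. For FOSB, as for FOS, only Ctrl and Hemin overlapped.

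FOSL1 was already abundant in control cells, and its range over the groups was much narrower. It was 370, 427 and 410 CPM in Ctrl and 939, 751 and 690 CPM in DdBIC. It was 391, 372 and 368 CPM in Hemin and 408, 402 and 359 CPM in DdBIC+Hemin. The 3 DdBIC libraries lay above the other 9, which overlapped across their groups. FOSL2, the other FOS protein without a strong activation domain, was the exception among the members. It was 26.0, 58.6 and 56.7 CPM in Ctrl, 115, 47.0 and 102 CPM in DdBIC, 53.9, 50.2 and 52.8 CPM in Hemin, and 31.2, 60.6 and 22.6 CPM in DdBIC+Hemin. All 4 groups overlapped, because single libraries of Ctrl, DdBIC and DdBIC+Hemin lay far from their group. The highest FOSL2 library was 2.26 times the lowest in Ctrl, 2.44 times in DdBIC and 2.68 times in DdBIC+Hemin, but 1.08 times in Hemin. Among 7350 genes whose mean was no lower than the lowest FOSL2 library (22.6 CPM), 1.07% varied that much or more within Ctrl, 1.02% within DdBIC and 0.626% within DdBIC+Hemin. The cause of this spread was not tested.

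JUN, the JUN family member with a strong activation domain, was higher in every treated group than in Ctrl and by far the highest under DdBIC alone. It was 42.0, 39.1 and 41.6 CPM in Ctrl and 2242, 1720 and 2033 CPM in DdBIC. It was 68.9, 68.0 and 65.6 CPM in Hemin and 177, 148 and 159 CPM in DdBIC+Hemin. No 2 groups overlapped, and the order was Ctrl, Hemin, DdBIC+Hemin, DdBIC. JUNB, which activates less strongly than JUN and can oppose it, was 55.1, 60.5 and 57.4 CPM in Ctrl and 801, 669 and 703 CPM in DdBIC. It was 50.6, 48.9 and 50.9 CPM in Hemin and 92.5, 76.8 and 98.5 CPM in DdBIC+Hemin. For JUNB the Hemin libraries were the lowest, just below Ctrl, and the groups did not overlap. JUND was 116, 113 and 117 CPM in Ctrl, 535, 453 and 487 CPM in DdBIC, 129, 131 and 128 CPM in Hemin, and 204, 183 and 185 CPM in DdBIC+Hemin. Its groups were also separate, in the order seen for JUN.

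**Figure D1:**
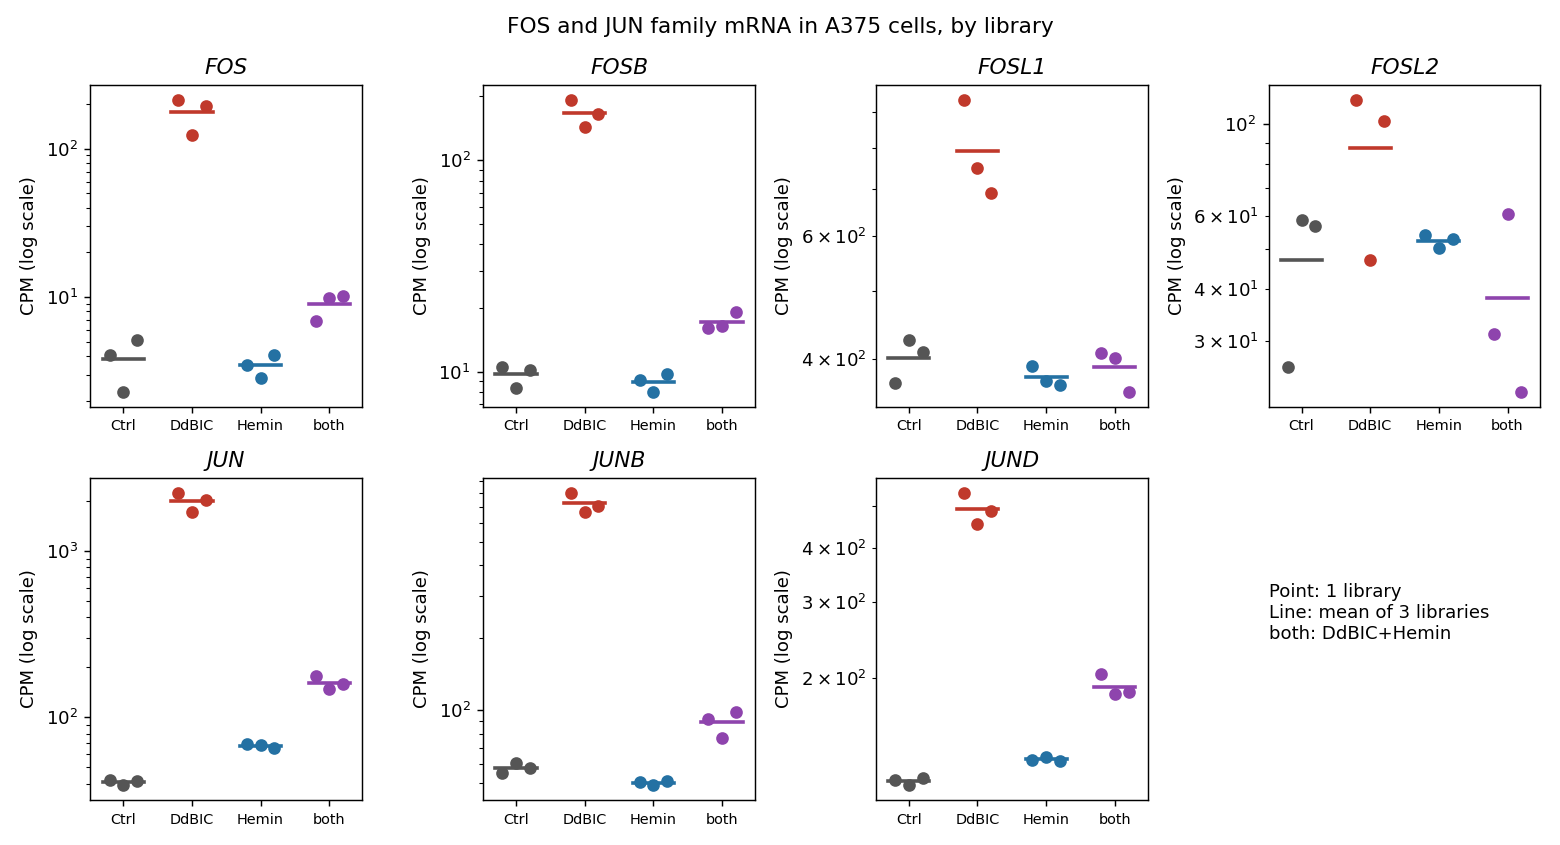
CPM on a log axis for each of the 7 FOS and JUN family genes, with 1 point per library, a line at the mean of the 3 libraries and the groups Ctrl, DdBIC, Hemin and DdBIC+Hemin (both) along the x axis. The 3 DdBIC points lie above all others for every gene except FOSL2, whose groups overlap.

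DdBIC against Ctrl asks what the compound did to the members in the absence of added hemin. JUN and FOS rose most, FOSB and JUNB followed, JUND rose less and FOSL1 least of the members that passed the test. In CPM (mean ± SD, n = 3), JUN went from 40.9 ± 1.57 to 1998 ± 262, a rise of 5.61 on the log2 scale (SE 0.11, edgeR's quasi-likelihood test, adjusted p = 2.59e-10). FOS went from 3.83 ± 1.43 to 177 ± 47.6 CPM, a rise of 5.52 (SE 0.34, adjusted p = 2.1e-06). The intervals of JUN (5.37 to 5.85) and FOS (4.75 to 6.30) overlapped, so their order was not resolved. FOSB rose by 4.11 (SE 0.14, adjusted p = 7.43e-09) and JUNB by 3.65 (SE 0.099, adjusted p = 2.03e-09). JUND rose by 2.09 (SE 0.058, adjusted p = 7.46e-10), and FOSL1 by 0.98 (SE 0.11, adjusted p = 5.87e-05), that is 1.97-fold. FOSL2 had a log2 fold change of 0.90 (SE 0.46, 95% interval -0.13 to 1.93, adjusted p = 0.158), so it did not pass, and its interval also holds the size of the FOSL1 rise.

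In all, 6 of 7 members rose and 0 fell under DdBIC. Of the 14287 genes tested, 37.2% changed, 20.0% higher and 17.2% lower (2859 and 2451 genes). With upper-quartile factors these were 2310 higher and 3472 lower, and the members' calls were the same. The groups did not overlap for the same 6 members, against 50.0% of all genes. Among all genes ordered by log2 fold change from the highest, JUN stood at place 16, FOS at 18, FOSB at 33, JUNB at 42 and JUND at 132, while FOSL1 stood at 591 and FOSL2 at 676. The DdBIC libraries also differed among themselves in a shared way, since replicate 1 was the highest for 7 of 7 members and replicate 2 the lowest for 6 of 7, all but FOSL1. In bulk RNA, more mRNA per cell and more cells that express a gene cannot be told apart. JUNB shares 259 exon bases with HOOK2 on the opposite strand, and the strand setting of the counts is not given in the sources used here. HOOK2 was at 7.66 to 10.8 CPM in every library and was not called in any comparison.

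Hemin against Ctrl asks what hemin did alone. JUN was the only member that passed the test, with 67.5 ± 1.75 CPM in Hemin against 40.9 ± 1.57 CPM in Ctrl (mean ± SD, n = 3). This was a rise of 0.72 on the log2 scale (SE 0.093, edgeR adjusted p = 0.00225), or 1.65-fold. Of all genes, 4.06% changed, 1.47% higher and 2.59% lower, beside 1 of 7 members. These are 580 genes, and the count was 364, 341 and 292 without Ctrl replicates 1, 2 and 3 and 373, 272 and 338 without Hemin replicates 1, 2 and 3, while JUN kept its call in each case. JUND and JUNB did not overlap between Hemin and Ctrl either, which with JUN makes 3 of 7 members, against 25.1% of all genes. JUND had a log2 fold change of 0.17 (95% interval 0.045 to 0.29, adjusted p = 0.143) and JUNB of -0.20 (adjusted p = 0.302), and neither was called. With only these 6 libraries in the fit, JUND was called (0.17, adjusted p = 0.0209). The 4 FOS family genes had log2 fold changes of -0.14 to 0.15, with adjusted p of 0.729 to 0.922.

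DdBIC+Hemin against Hemin asks what DdBIC did when hemin was present. The JUN family, FOS and FOSB still rose, by far less than without hemin, and FOSL1 stayed near its Hemin level. JUN rose from 67.5 ± 1.75 to 162 ± 14.5 CPM, by 1.26 on the log2 scale (SE 0.092, edgeR adjusted p = 4.05e-05). FOSB rose by 0.94 (SE 0.13, adjusted p = 0.0017), JUNB by 0.83 (SE 0.091, adjusted p = 0.000459) and JUND by 0.56 (SE 0.056, adjusted p = 0.000191). FOS rose from 3.48 ± 0.605 to 8.99 ± 1.85 CPM, by 1.37 (SE 0.32, adjusted p = 0.0362). That call for FOS was close to the threshold: it was lost without Ctrl replicate 1 (adjusted p = 0.0575), DdBIC replicate 3 (0.0508), Hemin replicate 1 (0.112), 2 (0.123) or 3 (0.0782), or DdBIC+Hemin replicate 2 (0.0949) or 3 (0.102), and with no filter on low counts (0.0526). FOSL1 had a log2 fold change of 0.048 (95% interval -0.19 to 0.28, adjusted p = 0.861), an interval that leaves out a rise of the size seen without hemin. FOSL2 had one of -0.46 (95% interval -1.49 to 0.58, adjusted p = 0.656). Thus 5 of 7 members rose and 0 fell, while 6.80% of all genes changed, 3.71% higher and 3.09% lower (530 and 441 genes). Scaled by library size only, 421 genes were higher and 575 lower, and the members' calls were the same. The 971 genes called in all were 621 and 625 without Hemin replicates 1 and 3, and 612 without DdBIC+Hemin replicate 1. The same 5 members did not overlap between the groups, against 26.3% of all genes.

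The difference between these DdBIC effects, with hemin minus without, was tested in the same fit. It was below 0 for all 7 members, which means a smaller DdBIC effect with hemin, and it passed the test for 6 of them. Of all genes, 16.6% passed this test, 6.40% above 0 and 10.2% below. With upper-quartile factors the split of all genes turned, to 1497 above and 1203 below, and the members' calls were the same. The difference was largest for JUN, at -4.35 on the log2 scale (SE 0.13, edgeR adjusted p = 5.01e-08), and FOS, at -4.15 (SE 0.45, adjusted p = 0.000277). It was -3.16 for FOSB (adjusted p = 1.78e-06), -2.82 for JUNB (adjusted p = 5.23e-07), -1.54 for JUND (adjusted p = 5.43e-07) and -0.93 for FOSL1 (adjusted p = 0.00214). FOSL2 had a difference of -1.36 (95% interval -2.81 to 0.10, adjusted p = 0.205) and was not called. On the linear scale, the CPM gained under DdBIC with hemin was 3.19% of the gain without hemin for FOS, 4.80% for JUN, 5.23% for FOSB, 5.87% for JUNB and 16.2% for JUND. JUND therefore kept the largest share of its gain among these 5 genes, as a description of the group means. No share is given for FOSL1, which did not pass the test with hemin present.

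**Figure D2:**
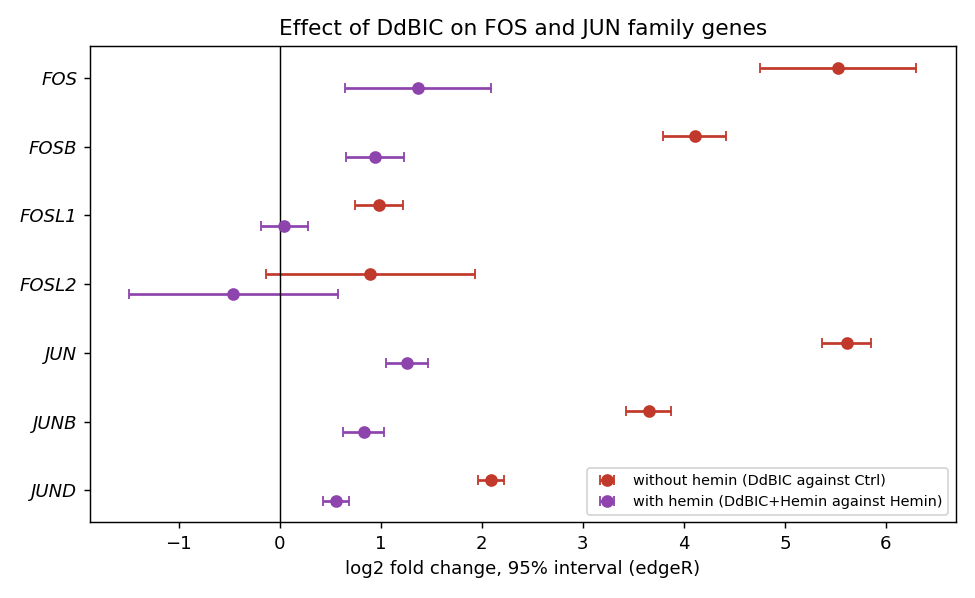
Log2 fold change of each member under DdBIC without hemin (DdBIC against Ctrl, red) and with hemin (DdBIC+Hemin against Hemin, purple), with 95% intervals from edgeR. The purple intervals lie below the red ones for 6 of 7 genes, and those of FOSL2 overlap and include 0.

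DdBIC+Hemin against DdBIC and DdBIC+Hemin against Ctrl set the cells given both compounds against those given DdBIC alone and against control cells. They share libraries with the comparisons above, so their values are given as measured and not as further evidence. Against DdBIC, 6 of 7 members fell and 0 rose, while 31.9% of all genes changed, 18.4% lower and 13.5% higher. With upper-quartile factors 2032 genes were lower and 2948 higher, and the members' calls were the same. The log2 fold change was -4.29 for FOS (edgeR adjusted p = 1.01e-05), -3.63 for JUN (adjusted p = 7e-09) and -3.28 for FOSB (adjusted p = 4.13e-08). It was -3.02 for JUNB (adjusted p = 1.24e-08), -1.37 for JUND (adjusted p = 2.61e-08) and -1.03 for FOSL1 (adjusted p = 6.31e-05). FOSL2 had a log2 fold change of -1.20 (SE 0.46, adjusted p = 0.0764). It was called without DdBIC replicate 2 (-1.50, adjusted p = 0.0364), without DdBIC+Hemin replicate 2 (-1.71, adjusted p = 0.028) and by DESeq2 (-1.20, adjusted p = 0.0286). The groups did not overlap for the 6 called members, against 44.2% of all genes.

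Against Ctrl, 5 of 7 members were still higher in DdBIC+Hemin and 0 were lower, while 12.4% of all genes changed, 5.66% higher and 6.74% lower. Scaled by library size only, 646 genes were higher and 1230 lower, and the members' calls were the same. JUN was higher by 1.98 (SE 0.095, edgeR adjusted p = 1.84e-06), FOSB by 0.82 (SE 0.13, adjusted p = 0.00205), JUND by 0.73 (SE 0.057, adjusted p = 1.29e-05) and JUNB by 0.63 (SE 0.090, adjusted p = 0.00135), all on the log2 scale. FOS was higher by 1.23 (SE 0.32, adjusted p = 0.035). Its adjusted p was 0.0886 without Ctrl replicate 1, 0.0872 without Ctrl replicate 2, 0.0556 and 0.0504 without Hemin replicates 1 and 3, and 0.0959 and 0.0966 without DdBIC+Hemin replicates 2 and 3. It was 0.0507 with no filter on low counts and 0.0732 with only these groups in the fit. FOSL1, at 390 ± 26.5 CPM against 402 ± 29.3 CPM (mean ± SD, n = 3), had a log2 fold change of -0.045 (95% interval -0.28 to 0.19, adjusted p = 0.847). FOSL2 had one of -0.31 (95% interval -1.34 to 0.73, adjusted p = 0.742). The groups did not overlap for 5 of 7 members, against 31.0% of all genes.

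Levels of different genes were compared in the authors' TPM, which is scaled by gene length. In Ctrl, FOSL1 dominated with a mean of 618 TPM, followed by JUND at 129, JUNB at 65.8, JUN at 24.0, FOSL2 at 15.1, FOSB at 6.66 and FOS at 5.26 TPM, and only FOSB and FOS overlapped. The order was the same in Hemin, with no overlap between neighbours. Under DdBIC, JUN (1172 TPM) stood level with FOSL1 (1168 TPM), their libraries overlapping, and JUNB (826 TPM), JUND (549 TPM), FOS (257 TPM), FOSB (124 TPM) and FOSL2 (28.4 TPM) followed without overlap. In DdBIC+Hemin, FOSL1 (576 TPM) and JUND (209 TPM) led again. JUNB (99.5 TPM) and JUN (92.6 TPM) overlapped, as did FOS (15.4 TPM) with FOSL2 (12.1 TPM) and FOSL2 with FOSB (11.3 TPM). The place of FOS in these orders rests on the length behind its TPM, which differed 1.81-fold between libraries. In CPM, which is not scaled by length, FOS had a mean of 8.99 in DdBIC+Hemin and FOSB 17.2. The 7 genes together took 0.0630% to 0.0712% of all counts in Ctrl, 0.387% to 0.499% in DdBIC, 0.0683% to 0.0713% in Hemin and 0.0844% to 0.0927% in DdBIC+Hemin.

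The make-up of each family also differed between groups. FOS and FOSB, the members with a strong activation domain, made up 2.46%, 1.29% and 1.88% of FOS family TPM in Ctrl and 23.8%, 19.1% and 29.4% in DdBIC. Their share was 1.62%, 1.74% and 1.92% in Hemin and 3.75%, 4.44% and 4.91% in DdBIC+Hemin. FOSL1 was thus the major FOS family mRNA in every library, at 68.3% or more. The JUN share of JUN family TPM was 11.3%, 10.5% and 11.1% in Ctrl, 46.5%, 44.3% and 47.0% in DdBIC, 16.7%, 16.5% and 16.0% in Hemin, and 23.7%, 22.9% and 22.6% in DdBIC+Hemin. No groups overlapped for JUN, whereas JUND led its family in all groups but DdBIC. The log2 ratio of FOS family to JUN family TPM was 1.55 ± 0.12 in Ctrl, -0.70 ± 0.13 in DdBIC, 1.33 ± 0.054 in Hemin and 0.62 ± 0.18 in DdBIC+Hemin (mean ± SD, n = 3). In TPM, JUN family mRNA thus exceeded FOS family mRNA only in the DdBIC libraries, which did not hold in plain counts. Over the 3 measures and 5 pairs of groups, the two-sided exact permutation test gave p = 0.1, the smallest that 3 against 3 allows, in all but 1 of the comparisons. The exception was the FOS and FOSB share in Hemin against Ctrl (exact permutation p = 0.8). This test therefore cannot reach 0.05 with 3 libraries a group. The length behind the TPM of FOS differed 1.81-fold between libraries, against a median of 1.09-fold over 10131 genes. With counts per annotated exon length in its place, an alternative added after the data were seen, the FOS and FOSB share rose by 15.0 percentage points under DdBIC rather than 22.2.

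**Figure D3:**
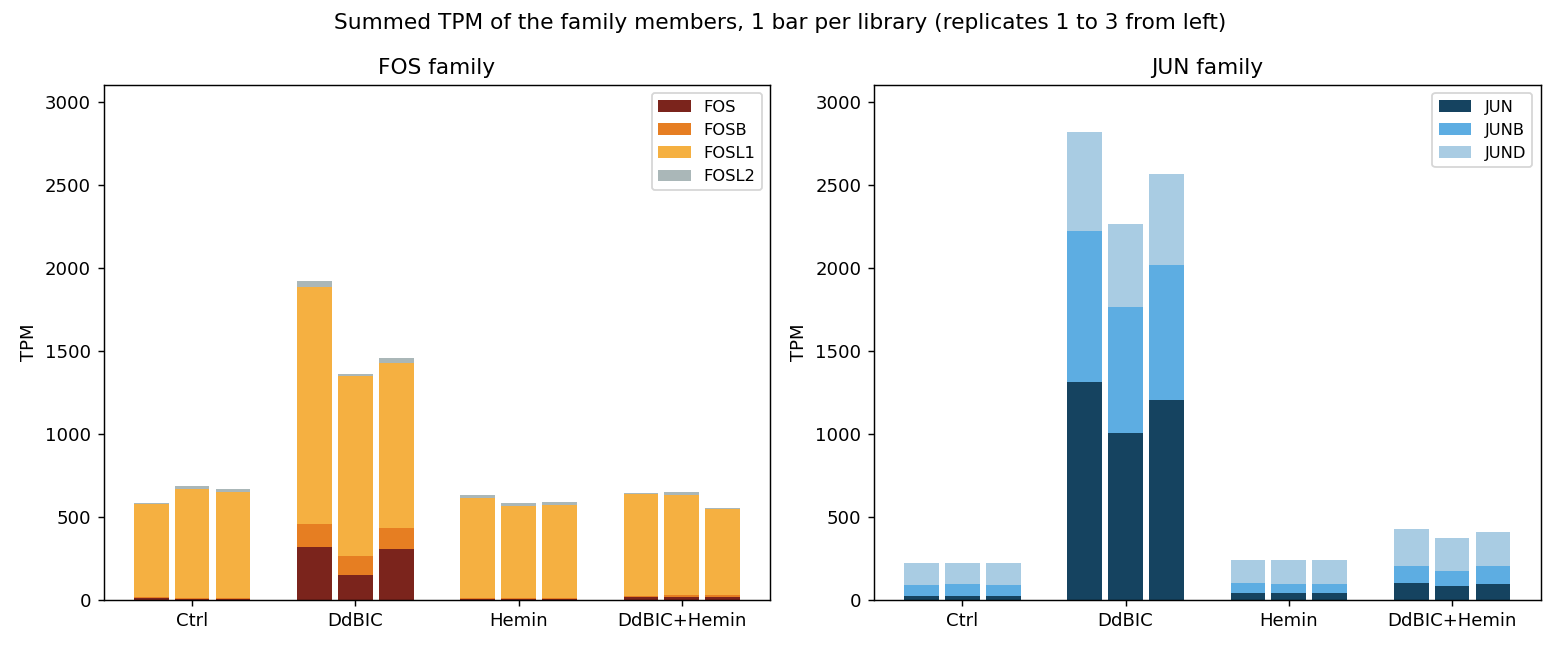
Summed TPM of the FOS family (left) and the JUN family (right), with 1 stacked bar per library and the members in colors. FOSL1 fills most of every FOS family bar, and the JUN family bars reach 2264 to 2815 TPM in DdBIC against 218 to 221 TPM in Ctrl.

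Other genes of the AP-1 pathway were taken from lists drawn up from general knowledge, but with earlier results of these data known. Their counts and median log2 fold changes are therefore a description and not an independent test. In DdBIC against Ctrl the median over all 14287 genes was -0.0082. Among bZIP proteins that pair with FOS or JUN proteins, 10 of 12 were tested, 4 rose and 1 fell, with a median of 0.39, beside 20.0% of all genes higher and 17.2% lower. ATF3, a stress-induced partner of JUN proteins, rose from 7.88 ± 1.87 to 169 ± 77.8 CPM (mean ± SD, n = 3), by 4.42 (edgeR adjusted p = 2.43e-05), and by 1.41 with hemin present (adjusted p = 0.0486). The small MAF proteins MAFF and MAFG had the next highest and the lowest value, 1.69 (SE 0.83, adjusted p = 0.145) and -1.43 (SE 0.58, adjusted p = 0.0818), and neither passed. With hemin present, 1 of the 10 rose and 1 fell in DdBIC+Hemin against Hemin, beside 3.71% of all genes higher and 3.09% lower.

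Among kinases that act on FOS and JUN proteins or lie upstream (ERK, JNK and p38 cascades and RSK), 14 of 15 were tested, 2 rose and 5 fell under DdBIC (all genes: 20.0% higher, 17.2% lower), with a median of -0.020. RPS6KA3, which encodes RSK2, a kinase of FOS, rose from 320 ± 5.04 to 473 ± 8.19 CPM, by 0.56 (edgeR adjusted p = 1.64e-08). RPS6KA2, another RSK gene, fell by 0.55 (adjusted p = 0.0021), and MAP2K4, an activator of JNK, had a value of 0.64 (SE 0.46, adjusted p = 0.322). Among transcription factors known to bind the FOS and JUN promoters, 10 of 10 were tested, 5 rose and 0 fell (all genes: 20.0% and 17.2%), with a median of 0.19. MEF2A and MEF2D, which bind the JUN promoter, rose by 0.61 (adjusted p = 0.00202) and 0.46 (adjusted p = 0.0318), and MRTFB, a coactivator of SRF, had the lowest value, -0.65 (SE 0.40, adjusted p = 0.247). Activity of these kinases and factors was not measured.

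Among genes for the turnover of FOS and JUN mRNA and protein, 9 of 9 were tested, 4 rose and 0 fell under DdBIC (all genes: 20.0% higher, 17.2% lower), with a median of 0.13. ZFP36, which binds AU-rich elements and promotes mRNA decay, rose from 11.6 ± 0.590 to 227 ± 117 CPM (mean ± SD, n = 3), by 4.29 (edgeR adjusted p = 1.0e-05). With hemin present its value was -0.13 (adjusted p = 0.872), and the difference between these effects was -4.42 (adjusted p = 0.000193). Its relative ZFP36L1 rose by 1.17 without hemin (adjusted p = 6.27e-07). DET1, a subunit of a ubiquitin ligase for JUN, had the lowest value, -0.24 (adjusted p = 0.365).

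Textbook AP-1 target genes are genes of proteases, cytokines and growth factors with AP-1 sites. Of 20, 19 were tested, and 13 rose and 0 fell in DdBIC against Ctrl (all genes: 20.0% higher, 17.2% lower), with a median of 1.15. CXCL8, a neutrophil chemokine, rose from 9.15 ± 0.551 to 671 ± 63.2 CPM (mean ± SD, n = 3), by 6.20 (edgeR adjusted p = 4.46e-08). IL6, an inflammatory cytokine, rose from 0.277 ± 0.0042 to 6.70 ± 0.722 CPM, by 4.58 (adjusted p = 2.55e-07). CD44, a cell adhesion receptor, had the lowest value, -0.076 (adjusted p = 0.0633). In DdBIC+Hemin against Hemin 10 of the 19 rose and 0 fell (all genes: 3.71% higher, 3.09% lower), with a median of 0.39 against -0.0018 over all genes. There CXCL8 rose by 2.10 (adjusted p = 0.00032), IL6 by 1.42 (adjusted p = 0.0125) and CD44 by 0.24 (adjusted p = 0.000703). The DdBIC effect was smaller with hemin for 8 of the 19 and larger for 1, CD44, whose difference was 0.31 (adjusted p = 0.0004), beside 10.2% of all genes below 0 and 6.40% above. The difference was -4.09 for CXCL8 (adjusted p = 1.28e-05) and -3.16 for IL6 (adjusted p = 0.000316). Many other factors also control these genes.

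**Figure D4:**
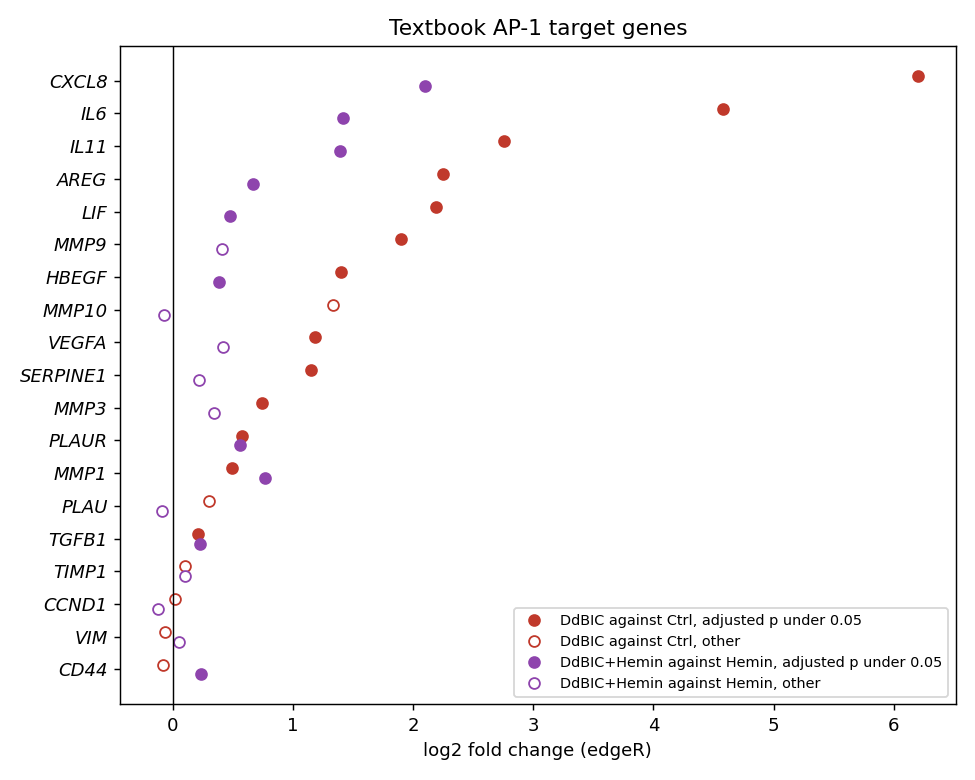
Log2 fold change (edgeR) of 19 textbook AP-1 target genes under DdBIC without hemin (red) and with hemin (purple), ordered by the value without hemin, with filled points for an adjusted p under 0.05. CXCL8 (6.20 and 2.10) and IL6 (4.58 and 1.42) head the order, and CD44 is last without hemin.

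Across the 12 libraries, the log2 CPM values of the 6 members other than FOSL2 had a Pearson r of 0.908 to 0.998 with each other, while FOSL2 had 0.50 to 0.67 with them. These values rest on the same 12 libraries and mainly on the gap between the DdBIC group and the rest, and are given as a description. The closest pairs within the family were JUN with JUND (0.998), FOSB with JUNB (0.997) and FOS with FOSB (0.996). By the same measure over 10671 genes averaging 5 CPM or more, with the members themselves left out, the 3 genes most like JUNB were IER3, EGR1 and DUSP1 (r of 0.998 to 0.997). IER3 and EGR1 are early response genes and DUSP1 is a MAP kinase phosphatase. EGR1 was at 27.4 CPM in Ctrl, 2493 in DdBIC, 26.0 in Hemin and 53.4 in DdBIC+Hemin as group means. Outside the family, FNIP1, WAC and EGR2 were most like FOS (0.994 to 0.993), below its value with FOSB, and NAMPT, WAC and MRNIP most like FOSB (0.998 to 0.997). PLK3, a stress-responsive kinase, and SDE2 headed the order of genes outside the family for JUN and for JUND, followed by AEN for JUN and by DDIT4 for JUND (all 0.997 to 0.998). JUND was closer to JUN than any of these genes was, whereas PLK3 (0.99833) was marginally closer to JUND than JUN was (0.99831). For FOSL1 the genes were ZNF317, KDM4B and OSBP (0.987 to 0.981). For FOSL2, IBA57, VHL and PPP4R3A reached only 0.891 to 0.852. These were lower values than the other members had with their closest genes.

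In the deposited table the members lie on GRCh38 at chr14:75278774-75282230 (FOS), chr19:45467995-45475179 (FOSB), chr11:65892049-65900573 (FOSL1), chr2:28392802-28417312 (FOSL2), chr1:58780788-58784327 (JUN), chr19:12791496-12793315 (JUNB) and chr19:18279760-18281622 (JUND). FOSL1, JUN and JUND are on the minus strand. JUN and JUNB have 1 exon each in GENCODE 29. The start of FOSL2 differs from that annotation, and the other 6 genes have the same span in it. FOSB overlaps ERCC1 on the opposite strand with 0 shared exon bases.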

How the data were processed

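RNA of A375 cells was sequenced in 12 libraries, 3 per group. The submitters' processing notes name Trim Galore, Subread, featureCounts and hg38, with no versions. The deposited counts are reads per gene that the authors did not normalize. The authors also deposited TPM (scaled by length, to one sum per library) and FPKM (scaled by length and depth). FPKM was used only as another scale for the family shares.

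Groups came from the labels. The test of the counts was that of edgeR 4.0.16 (R 4.3.3), with filterByExpr by group, TMM factors, robust quasi-likelihood F tests, one mean per group over 12 libraries (8 residual degrees of freedom), and Benjamini-Hochberg adjustment over 14287 genes. A gene was called at an adjusted p under 0.05. The SE was obtained by dividing the log2 fold change, without sign, by the root of F, and intervals are 95%. Log2 CPM used a prior count of 2. Family shares were compared by exact permutation. Promoters came from RefSeq.

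Members and lists were chosen with earlier results of these data known. Named genes are the members, the 2 highest and 1 lowest tested gene of each list in DdBIC against Ctrl, and the 3 genes outside the family most like each member. HMOX1, HOOK2, ERCC1 and the genes of the cell type marker list, whose values were seen before they were described, serve as checks. Steps were tested on simulated data. Alternatives were DESeq2 1.42.0, upper-quartile factors, library size only, no count filter, at least 10 counts in every library, a fit of the compared groups alone, a block for the replicate number, omission of each library, a minimum absolute log2 fold change of 1, and other length scales.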

Additional observations from a re-analysis of the deposited data

Results flagged for a closer look

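The effect of DdBIC differed between cells without and with hemin for 6 of the 7 FOS and JUN family genes, by edgeR's test of the difference itself (adjusted p under 0.05). Of all 14287 genes, 16.6% passed this test, 10.2% with a difference below 0. The difference in log2 fold change, with hemin minus without, was -4.15 for FOS, -3.16 for FOSB, -0.93 for FOSL1, -4.35 for JUN, -2.82 for JUNB and -1.54 for JUND. Each kept its sign and its call in 18 alternative settings of the fit. A minimum absolute log2 difference of 1, which is not among the 18, left 5 of the 6, without FOSL1. What lies behind the difference was not tested.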

How the results depend on the processing

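Over 42 combinations of a member and a comparison, 791 alternative values were computed. Direction and side of the threshold were kept in 768, the call was lost in 16 (all FOS, in DdBIC+Hemin against Hemin and against Ctrl, by omission of a library, with no filter on low counts or, against Ctrl, with only the groups compared, where adjusted p reached 0.123 and 0.0966), gained in 4 (3 for FOSL2 in DdBIC+Hemin against DdBIC, 1 for JUND in Hemin against Ctrl) and the sign changed in 3, none of them called. The reversals were FOSL2 without Ctrl replicate 1 (-0.14) and FOS without Ctrl replicate 3 (0.12) in Hemin against Ctrl, and FOSL1 without DdBIC+Hemin replicate 3 (0.0098) in DdBIC+Hemin against Ctrl, and over all omissions of a library these ranged from -0.14 to 0.34, -0.41 to 0.12 and -0.10 to 0.0098. The cause was not tested. With a minimum absolute log2 fold change of 1, the genes called fell to 502 in DdBIC against Ctrl, 46 in DdBIC+Hemin against Hemin, 323 in DdBIC+Hemin against DdBIC, 16 in Hemin against Ctrl, 82 in DdBIC+Hemin against Ctrl and 278 for the difference of effects, from 5310, 971, 4559, 580, 1771 and 2376, and the members called to 2 in DdBIC+Hemin against Hemin, 0 in Hemin against Ctrl and 2 in DdBIC+Hemin against Ctrl, and from 6 to 5 in DdBIC against Ctrl and for the difference of effects. With only the groups compared in the fit, 569 genes were called in DdBIC+Hemin against Hemin and 2 members in Hemin against Ctrl. Leaving out each library gave 612 to 934 genes in DdBIC+Hemin against Hemin and 272 to 623 in Hemin against Ctrl. Upper-quartile factors moved the share of called genes that were higher from 53.8% to 40.0% in DdBIC against Ctrl, from 42.4% to 59.2% in DdBIC+Hemin against DdBIC and from 38.5% to 55.4% for the difference of effects. Library size only moved it from 54.6% to 42.3% in DdBIC+Hemin against Hemin and from 45.6% to 34.4% in DdBIC+Hemin against Ctrl. Counts per exon length in place of TPM changed the FOS and FOSB share by 15.0 points (DdBIC against Ctrl) and -13.6 points (DdBIC+Hemin against DdBIC). Plain counts gave 43.0 and -25.5 points for the JUN share, and -2.51 for the log2 family ratio in DdBIC against Ctrl. Same-numbered libraries deviated from their group means with a correlation of -0.046 to 0.081, over 0.1 in 0 of 18 pairs. No shift shared by same-numbered libraries was thus seen, which cannot show whether they were prepared together. With the replicate number as a block, 6 members were called in DdBIC against Ctrl, 5 in DdBIC+Hemin against Hemin and 1 in Hemin against Ctrl, and 5084, 776 and 408 genes.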
